A study of Mus musculus with 16 samples.

Results

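Integrins are the cell-surface receptors that hold fibroblasts to the extracellular matrix. The genes described here are 9 members of that family, Itga1, Itga5, Itga8, Itga11, Itgav, Itgb1, Itgb3, Itgb5 and Itgbl1, taken by symbol from the 19707 symbols listed in at least 1 of 3 normalized count tables. All 9 are listed in all 3 tables. The RNA came from cardiac fibroblasts of mice, flow-sorted from hearts, and was sequenced in 16 libraries of 6 groups. All mice were 8 to 12 weeks old, all received tamoxifen, and all carried a Rosa26 reporter that makes EGFP once a Cre enzyme has removed a stop cassette.

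Tcf21 is a transcription factor gene active in cardiac fibroblasts and their embryonic precursors, and its protein belongs to the basic helix-loop-helix class. In the loss arm, hearts of genotype Tcf21-MerCreMer:Tcf21-fl, in which Cre deletes a floxed Tcf21, were set against Tcf21-MerCreMer hearts, which carry the Cre alone. There were 3 loss and 3 control libraries from uninjured hearts 2 weeks after tamoxifen, and 2 loss and 3 control libraries after 1 week of angiotensin II and phenylephrine, a hormone and an adrenergic agonist that together load the heart and drive fibrosis. In the gain arm, 2 libraries of genotype Pdgfra-creERT:Col1a1-TCF21, in which Cre switches on a TCF21 transgene, were set against 3 Pdgfra-creERT libraries, all after the same infusion. The Cre is driven by Tcf21 in the loss arm and by Pdgfra in the gain arm, so the reporter marks cells by different genes in the 2 arms. The labels do not tie libraries to animals, and the tests therefore rest on a spread among libraries that may be technical.

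An integrin receptor joins an alpha and a beta chain, and the alpha chain sets most of what it binds. The Itga1 and Itga11 chains pair with the Itgb1 chain to bind collagens; Itga11 is the fibroblast receptor for fibrillar collagen. Itga5, Itga8 and Itgav make receptors for proteins with an Arg-Gly-Asp motif, such as fibronectin, nephronectin, vitronectin and the latency peptide of TGF-beta. Itgb3 and Itgb5 pair with Itgav, and in fibrosis such receptors are known to release active TGF-beta from its latent store. Itgbl1 is not a receptor chain: it encodes a protein of EGF-like repeats that resemble the stalk of a beta chain.

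TCF21 and its partners bind the E-box, spelled CANNTG. The promoters of Itga11, the member that changed in the gain arm, and Itga8, the member with the largest differences in the loss arm, are shown with their E-boxes in capitals. Each runs from 250 bases before to 50 bases after the RefSeq start site on GRCm38.p6, 5′ to 3′ along the gene, at chr9:62677605-62677904 on the plus strand and chr2:12301895-12302194 on the minus strand.
Itga11: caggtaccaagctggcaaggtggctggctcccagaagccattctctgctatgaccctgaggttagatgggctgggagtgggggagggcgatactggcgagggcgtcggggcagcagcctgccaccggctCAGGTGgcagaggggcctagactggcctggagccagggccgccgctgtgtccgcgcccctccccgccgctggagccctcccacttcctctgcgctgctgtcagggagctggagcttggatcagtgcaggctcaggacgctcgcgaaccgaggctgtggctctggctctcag
Itga8: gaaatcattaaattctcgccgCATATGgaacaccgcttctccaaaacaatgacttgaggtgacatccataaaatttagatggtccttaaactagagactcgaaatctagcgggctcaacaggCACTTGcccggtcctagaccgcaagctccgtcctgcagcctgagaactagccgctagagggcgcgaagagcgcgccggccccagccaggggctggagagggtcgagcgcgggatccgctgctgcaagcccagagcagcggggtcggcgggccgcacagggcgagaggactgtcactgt

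The Itga11 window holds 1 E-box, CAGGTG, at base 130 counted from the window's first base. The Itga8 window holds 2, CATATG at base 22 and CACTTG at base 123. Promoters were matched for 8 of the 9 members; Itgb3 is named only. Itga1 and Itga5 hold 2 E-boxes each, Itgb5 and Itgbl1 hold 3 each, and Itgav and Itgb1 hold 0. Because the motif reads the same on both strands, each site was counted once. Of 32851 promoter windows of the same length, 72.3% hold at least 1 E-box, 39.6% hold 2 or more and 17.6% hold 3 or more. CAGAC, a short SMAD protein motif searched on both strands, occurs 3 times in the Itgb1 window, 2 times in that of Itga5 and 1 time in that of Itga1, and 0 times in the other 5; it occurs at least once in 49.6% of all windows. These matches are letters in a window and were not measured as binding.

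Library sums lay between 27814940 and 40970391 normalized counts, which are estimated counts divided by the authors' normalization factors within each table. Tcf21 itself moved as labelled: it was 5.61-fold lower in uninjured loss (limma adjusted p = 4.2e-05), 8.98-fold lower in infused loss (adjusted p = 0.0049) and 2.44-fold higher in gain (adjusted p = 0.0045), and the labels do not say how far transgene transcripts count towards it. In infused loss its call was lost without loss library 1 (adjusted p = 0.0519) or 2 (adjusted p = 0.0792), and in gain it was lost without the variance trend (adjusted p = 0.0623). All 10 fibroblast markers were listed in every table, and their sum made up at most 8.88% to 12.5% of a library in the 6 groups. In gain that sum was 3093300 to 3325380, against 4373040 to 4675840 in its controls, and the list median was -0.38 on the log2 scale. Of 10 markers 1 passed, Pdgfrl, as lower (log2 fold change -0.75, adjusted p = 0.0420). Its call was lost without control library 1 (adjusted p = 0.105) and without the variance trend (0.162). Its effect was -0.71 without gain library 1 and -0.79 without gain library 2. The part of the lower fibroblast sum in the gain results was not tested. The 10 endothelial markers summed to 5237 to 6478 in gain libraries, against 8028 to 11091 in controls, but that sum was mostly Tek, at 5687 and 4943 in gain libraries, against 9442, 7729 and 10697.6 in controls. Tek was the 1 of 10 past the threshold, a call lost without control library 1 or gain library 1 or 2 (adjusted p up to 0.186) and without the variance trend (0.142), and the median log2 fold change of the list was 0.26. The 9 listed of 10 cardiomyocyte markers summed to 968 to 1047 in gain libraries, against 769 to 840 in controls. Of 8 tested, 1 passed as higher, Actc1, at 336 and 286 in gain libraries, against 134, 154 and 102 in controls. The list median was -0.12 on the log2 scale. Mural sums overlapped in gain, 1 of 9 tested mural markers passed as higher, and the median was -0.20. Without the variance trend both calls were lost (adjusted p = 0.0930 and 0.150). The part of these cells in the gain results was not tested. Of 8 mesothelial markers 2, 1 and 1 were listed in the uninjured loss, infused loss and gain tables, and 0 reached the level needed for a test. The endothelial markers Cdh5 and Robo4 were at 0 in all 3 uninjured loss libraries. They were also scarce in the controls, at 10.2 to 12.9 and 2.81 to 12.5, and under the level needed for a test. Fewer cells of a type and less RNA per cell cannot be told apart in these bulk libraries.

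The levels of the members in control fibroblasts were ordered per kilobase of the longest annotated transcript, within each table. Itgb5 and then Itgb1 were highest in all 3 control groups, and Itgbl1 came next, with no overlap between neighbours. In uninjured controls these levels averaged 10312 ± 391 for Itgb5, 9254 ± 507 for Itgb1 and 3486 ± 175 for Itgbl1 (normalized counts per kilobase, SD, n = 3). Itga5, Itgav and Itga11 followed at 1347 ± 40.3, 1237 ± 158 and 1205 ± 181 per kilobase in the same libraries, and neighbours among these 3 overlapped. Itga8 was lower, at 415 ± 67.2 per kilobase, and Itga1 and Itgb3 were lowest at 204 ± 24.3 and 196 ± 13.4, with overlap between them.

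The order of the alpha chains was not the same in the infused controls. On this length Itga11 was the highest alpha chain in both infused control groups, at 1855 ± 69.0 per kilobase in the Tcf21-MerCreMer controls and 2346 ± 242 in the Pdgfra-creERT controls (SD, n = 3 each). In the Tcf21-MerCreMer controls Itga5 followed at 1466 ± 125 and Itgav at 1168 ± 66.7 per kilobase, all without overlap, and Itga8 was last at 139 ± 48.0. In the Pdgfra-creERT controls Itgav and Itga5 overlapped at 1851 ± 225 and 1773 ± 54.8 per kilobase, and Itgb3, Itga8 and Itga1 formed the bottom of the order, each overlapping its neighbour. The tables were normalized separately, so an order can be read within a table while levels are not on a common scale between tables. The order also rests on the length used: with the median transcript length, only 4, 4 and 2 of the 9 members kept their place in uninjured, infused Tcf21-MerCreMer and Pdgfra-creERT controls, and Itgav was the highest alpha chain in all 3.

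**Figure D1:**
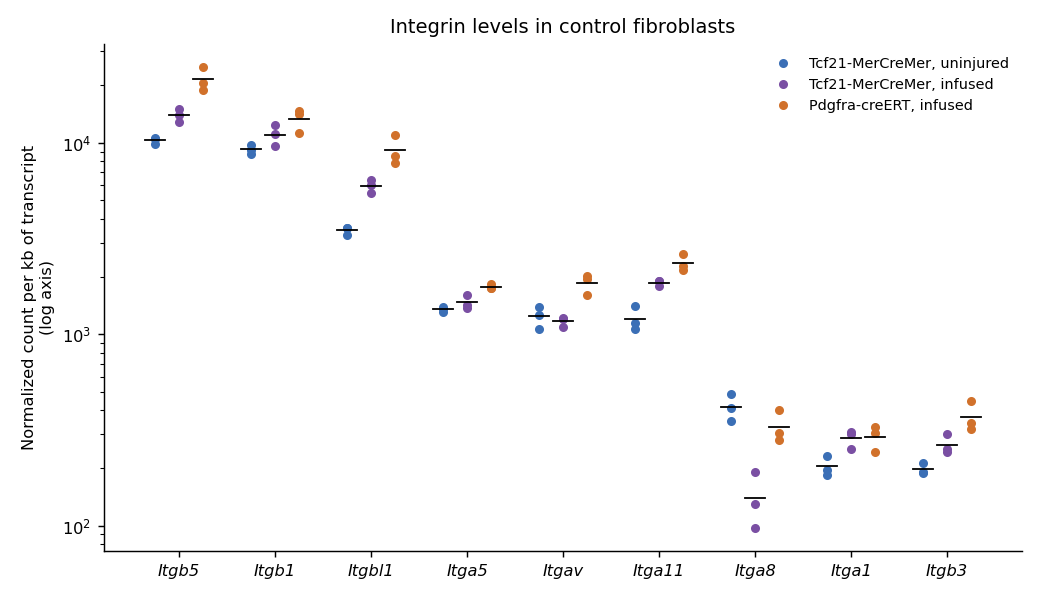
Normalized counts per kilobase of the longest transcript (log axis) of the 9 genes in the 3 control groups; each point is a library and each bar a mean. The beta chains Itgb5 and Itgb1 lie above Itgbl1 and all alpha chains in every control group, and Itga8 takes the last place in infused Tcf21-MerCreMer controls only.

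In uninjured hearts, loss of Tcf21 changed 0 of the 9 integrin genes at the threshold of an adjusted p below 0.05, where 3.58% of 15544 tested genes were called. All 9 passed the filter on low values. At an unadjusted p below 0.05, limma gave 4 of 9, namely Itga5, Itga8, Itgb5 and Itgbl1, against 21.2% of all tested genes. The same 4 were the genes whose loss and control libraries did not overlap, against 27.7% of all tested genes. The median log2 fold change of the 9 was -0.12, beside -0.012 over all tested genes.

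Among the collagen receptors, Itga11 read 6024, 6442 and 6563 normalized counts in loss libraries, against 5669, 5295 and 7004 in controls (log2 fold change 0.092, 95% interval -0.15 to 0.34, adjusted p = 0.665). Itga1 read 1975, 2612 and 2395 in loss libraries, against 2025, 2143 and 2535 in controls, a log2 fold change of 0.055. The groups overlapped for both genes.

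None of the Arg-Gly-Asp receptor chains passed. Itga8 held 1795, 1112 and 1588 normalized counts in loss libraries, against 2033, 2383 and 2813 in controls. Every loss library was below every control, and the log2 fold change of -0.70 (95% interval -1.12 to -0.28) did not pass with an adjusted p of 0.0712. Itga5 held 5457, 4956 and 4137 in loss libraries, against 5769, 5951 and 6124 in controls, again without overlap (log2 fold change -0.30, 95% interval -0.54 to -0.068, adjusted p = 0.137). Itgav held 6999, 8717 and 8431 in loss libraries, against 7527, 8930.2 and 9728 in controls, and the groups overlapped.

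The beta chains did not share 1 direction. Itgb5 held 38354, 41141 and 40646 normalized counts in loss libraries, against 34299.6, 34834 and 32393.5 in controls; the groups did not overlap, and the log2 fold change was 0.24 (95% interval 0.075 to 0.41, adjusted p = 0.108). Itgb1 (log2 fold change -0.16) and Itgb3 (-0.26) overlapped between groups. Itgbl1 held 14715, 20133 and 20009 in loss libraries, against 14623, 14540.3 and 13354 in controls, with loss library 1 just above the highest control (log2 fold change 0.35, adjusted p = 0.140). Without that library, limma called Itgbl1 (adjusted p = 0.0123), Itga8 (adjusted p = 0.0356) and Itga5 (adjusted p = 0.0485).

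Itga8 is also expressed by mural cells, and the mural marker list was lower in the same loss libraries. The 10 mural markers summed to 9080 to 10254 normalized counts in loss libraries, against 13784 to 15569 in controls, and Cspg4, Abcc9 and Kcnj8 passed the threshold as lower. Of these, Cspg4 kept its call without any 1 library, Abcc9 lost it without control library 2 (adjusted p = 0.0583) or 3 (adjusted p = 0.0535), and Kcnj8 kept it only without loss library 1. Other marker sums did not overlap either: the endothelial markers summed to 12340 to 13971 in loss libraries, against 16120 to 16299 in controls, and the 3 listed Schwann cell markers to 2141 to 2336, against 2526 to 3636. The endothelial sum was mostly Tek, at 12563, 13479 and 11805 in loss libraries, against 15280, 15346.5 and 15432 in controls. The median log2 fold change of the endothelial list was -0.69. Every loss library was below every control for Tie1 (-3.99), Kdr (-3.36), Fabp4 (-0.76), Esam (-0.69) and Tek (-0.29). Tie1 and Kdr were scarce, at 5.56 to 37.6 and 25.6 to 76.3 in controls. Egfl7 (-0.071) and Pecam1, which went the other way (0.52), overlapped between groups. The myeloid markers summed to 1133 to 1543 in loss libraries, against 902 to 991 in controls, and the erythroid and platelet markers to 384 to 1209.5, against 289.5 to 320.5; no marker of these 4 lists passed. Without the variance trend Abcc9 (adjusted p = 0.0953) and Kcnj8 (adjusted p = 0.153) lost their calls, and Kcnj8 also lost its call with the replicate block (adjusted p = 0.0633). The part of mural or these other cells in the values of Itga8 and the other members was not tested.

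After infusion, loss of Tcf21 again changed 0 of the 9 integrin genes, where 0.912% of 14799 tested genes were called. At an unadjusted p below 0.05, limma gave 1 of 9, Itga8, against 16.1% of all tested genes. Itga8 and Itgbl1 were the 2 genes without overlap, against 35% of all tested genes, and the median log2 fold change of the 9 was -0.065, beside 0.00017 over all tested genes.

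Itga8 held 428 and 296 normalized counts in loss libraries, against 1113, 751 and 565 in controls. Both loss libraries were below every control, and the 2.18-fold lower mean on the log2 scale (log2 fold change -1.13, 95% interval -1.83 to -0.42) did not pass, with an adjusted p of 0.165. The summed mural markers overlapped here, at 5187 to 6112 in loss libraries against 5427 to 6722 in controls. Of 6 Schwann cell markers 2 were listed, and nearly all of their sum was Cdh19, at 395 and 367 in loss libraries, against 1339, 987 and 843 in controls (log2 fold change -1.44, adjusted p = 0.0323). The call of Cdh19 was lost without control library 2 (adjusted p = 0.153), loss library 1 (0.154) or loss library 2 (0.254), and without the variance trend (0.135). The endothelial markers summed to 2851 to 3354 in loss libraries, against 3770.1 to 6840 in controls, again mostly Tek and with a list median of 0.18 on the log2 scale. The erythroid and platelet markers summed to 248 to 567 in loss libraries, against 128 to 150 in controls. In that list the globin gene Hba-a1 was 16.6-fold higher (adjusted p = 0.0380), a call lost without control library 1 or 2 or loss library 1 or 2 (up to 0.163) and without the variance trend (0.101). The part of these cells in the Itga8 values was not tested. Itgbl1 held 27181 and 30370.1 in loss libraries, against 22115 to 26029.6 in controls (log2 fold change 0.25, adjusted p = 0.384). Itga11 held 7930.4 and 9391 in loss libraries, against 8824, 9385 and 9446 in controls, so the groups overlapped (log2 fold change -0.094, 95% interval -0.35 to 0.16, adjusted p = 0.702). Itga5, Itga1 and Itgb1 had log2 fold changes of 0.17, 0.16 and 0.091, and Itgav, Itgb5 and Itgb3 of -0.065, -0.11 and -0.12, all with overlap between groups.

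The difference of the loss effect, infused minus uninjured, was tested in 1 fit over the 4 loss-arm groups. It called 0 of the 9 members, where 0.149% of 14130 genes were called, and 1 at an unadjusted p below 0.05, against 11.6% of all tested genes. That gene was Itga5, whose effects lay on opposite sides of 0 and differed by 0.47 on the log2 scale (95% interval 0.12 to 0.82, limma adjusted p = 0.333). For Itga8 the difference was -0.43 with a 95% interval from -1.26 to 0.41.

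**Figure D2:**
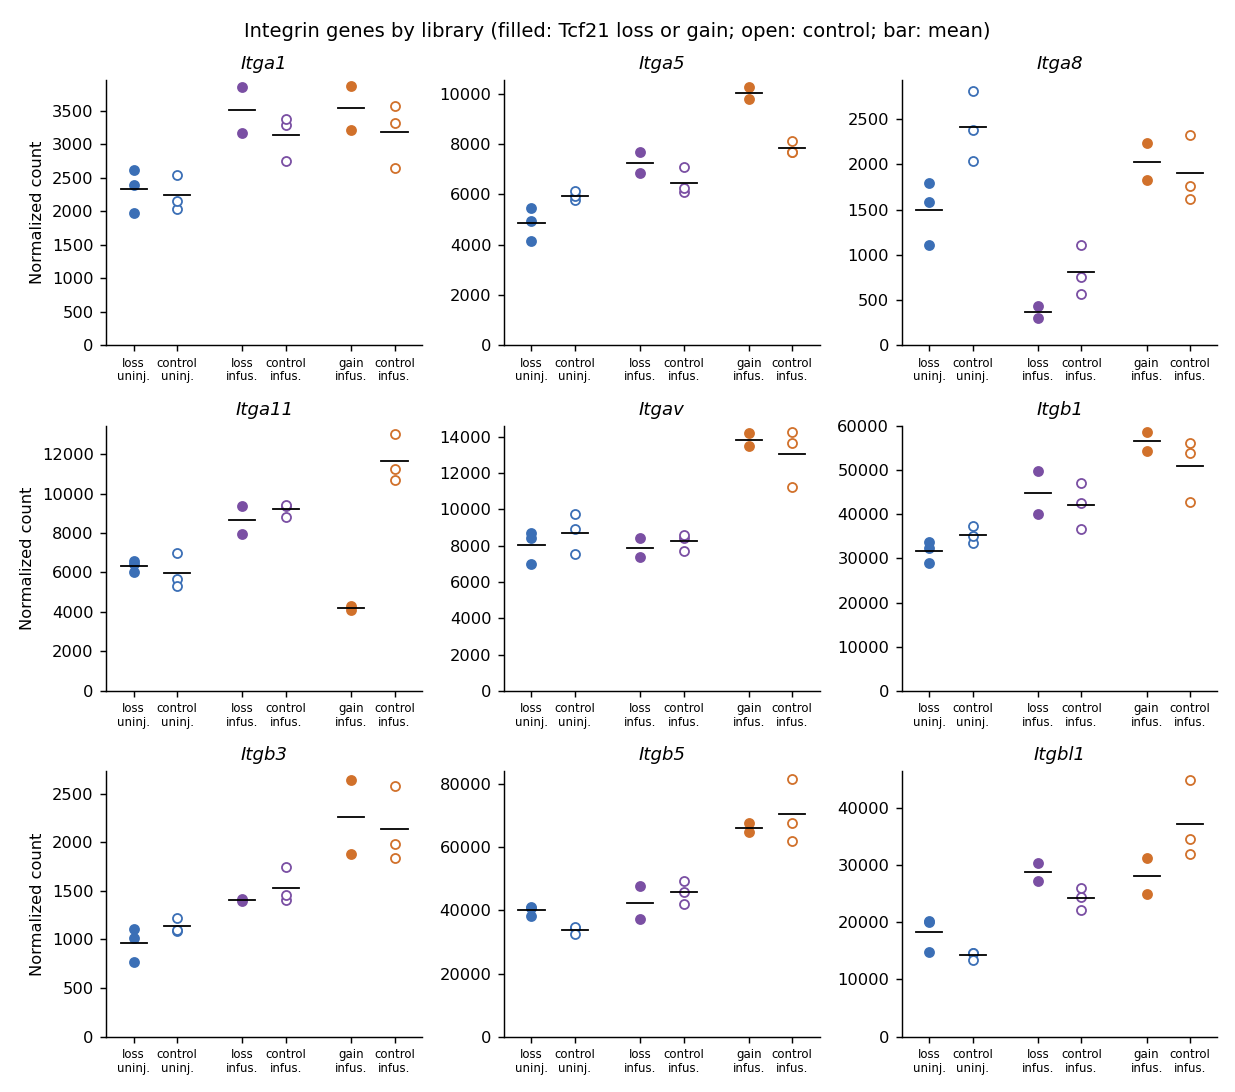
Normalized counts of the 9 genes by library, with filled points for loss or gain, open points for the controls of the same table and bars for means. Itga11 in gain (4324 and 4083) lies below all of its controls (10700 to 13008), and Itga8 in both loss groups lies below its own controls.

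Itga11 fell with gain of TCF21 in infused hearts. It held 4324 and 4083 normalized counts in gain libraries, against 10700.3, 13008 and 11269 in controls, and the means were 4204 ± 170 and 11659 ± 1202 (SD, n = 2 and 3). The highest gain library lay far under the lowest control. Itga11 (ENSMUSG00000032243, chromosome 9, 62677826 to 62783982, plus strand, GRCm38) was 2.76-fold lower (log2 fold change -1.47 ± 0.10, SE, 95% interval -1.71 to -1.22, limma adjusted p = 0.0024). It was the only member of the 9 past the threshold, where 4.14% of 15369 tested genes were called and 2.57% as lower. The call stood without any 1 library, with a log2 fold change of -1.53 to -1.39, and was lost without the variance trend (adjusted p = 0.0606), a fit that called 25 genes in all.

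The other 8 members did not pass the threshold in gain, and limma gave 2 of 9 at an unadjusted p below 0.05, Itga11 and Itga5, against 20.4% of all tested genes. The median log2 fold change of the 9 was 0.092, beside 0.0066 over all tested genes. Groups did not overlap for 3 members, Itga11, Itga5 and Itgbl1, against 39.3% of all tested genes.

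The fibronectin receptor chain Itga5 held 9790 and 10260.1 normalized counts in gain libraries, against 7677, 7701 and 8107 in controls. Both gain libraries were above every control (log2 fold change 0.36, 95% interval 0.17 to 0.55, adjusted p = 0.0589), and without control library 3 the gene passed (adjusted p = 0.0403). Itgav held 13481 and 14205 in gain libraries, against 14265, 13640.0 and 11259 in controls, with overlap. Itga8 held 1831 and 2234 in gain libraries, against 1765, 1618 and 2327 in controls, a log2 fold change of 0.10 (95% interval -0.29 to 0.50). The collagen receptor chain Itga1 also overlapped, at 3204 and 3867 in gain libraries, against 3323, 3572 and 2645 in controls.

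The beta chains that pair with these alpha chains differed little in gain. Itgb1, the partner of Itga11, held 58642 and 54427 normalized counts in gain libraries, against 56222, 53805 and 42763 in controls (log2 fold change 0.16, 95% interval -0.20 to 0.52). Itgb5 held 67644 and 64965 in gain libraries, against 62084 to 81665 in controls (log2 fold change -0.078), and Itgb3 held 1873 and 2635 in gain libraries, against 1842 to 2576 in controls (0.073). Itgbl1 held 31254 and 24818 in gain libraries, against 34587, 44760.2 and 31891.5 in controls. Both gain libraries were lower, and the log2 fold change of -0.40 (95% interval -0.81 to 0.012) did not pass, with an adjusted p of 0.258.

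Whether loss and gain moved a gene differently in infused hearts was tested as loss effect minus gain effect, over 4 groups that share no library between the arms. The difference passed for 1 of 9 members, Itga11, where 2.93% of 14319 genes were called and 1.22% as higher in this difference. For Itga11 the effect was -0.094 in loss and -1.47 in gain, a difference of 1.37 ± 0.15 (log2, SE, 95% interval 1.04 to 1.71, limma adjusted p = 0.0014). It kept its call in all 10 fits without 1 library and in all 9 other alternatives run. Limma gave 3 of 9 at an unadjusted p below 0.05, against 16.3% of all tested genes. The others were Itga8, with a difference of -1.23 (95% interval -2.10 to -0.37, adjusted p = 0.142), and Itgbl1, with 0.65 (95% interval 0.14 to 1.16, adjusted p = 0.187).

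**Figure D3:**
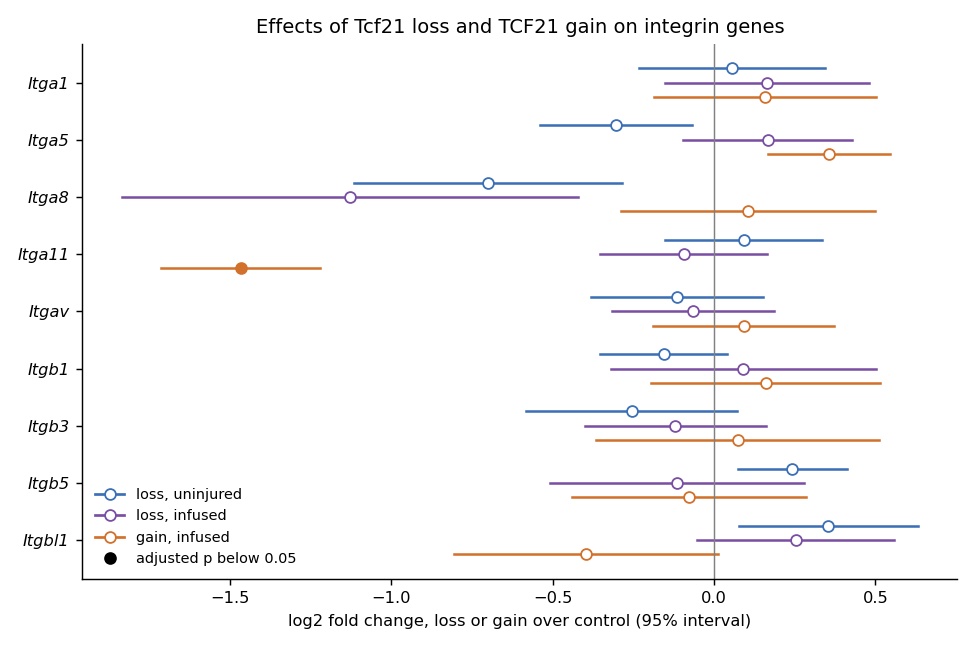
Log2 fold changes of the 9 genes, loss or gain over control, in uninjured loss, infused loss and infused gain, with 95% intervals; a filled point marks an adjusted p below 0.05. Itga11 in gain, at -1.47, is the only filled point, and its 2 loss effects of 0.092 and -0.094 have intervals that include 0.

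The make-up of the alpha chains was described as each chain's share of the per-length sum of the 5 alpha members in a library, which needs no scaling between libraries. In gain, Itga11 made up 15.5% and 13.9% in gain libraries, against 33.0%, 37.9% and 35.8% in controls, a mean of 14.7% ± 1.12 against 35.6% ± 2.46 (SD, n = 2 and 3) and a difference of -20.8 percentage points. Itga5 made up 39.6% and 39.4% in gain libraries, against 26.7%, 25.3% and 29.0% in controls, with all gain values higher. With the median transcript length, or with all alpha subunits as the denominator, a setting chosen after seeing the data, the difference was between -18.5 and -8.38 points for Itga11 and between 4.12 and 7.75 points for Itga5, against 12.5 as first computed. Itgav made up 34.1% and 34.2% in gain libraries, against 31.0%, 28.0% and 25.2% in controls, and all gain values were higher. The shares of a library add up to a fixed whole, so the lower Itga11 share by itself raises the other shares. The higher Itga5 and Itgav shares are therefore not separate results. In normalized counts Itgav overlapped between the groups (log2 fold change 0.092, limma adjusted p = 0.729). The two-sided exact permutation test cannot go below 0.1 with 2 against 3 or 3 against 3 libraries; it gave p = 0.1 for Itga11 and Itga5 and p = 0.2 for Itgav (0.214 and 0.231 after Benjamini-Hochberg adjustment over 15 shares).

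In uninjured loss, Itga8 made up 7.86%, 4.69% and 6.93% of the alpha chains in loss libraries, against 8.64%, 9.57% and 9.90% in controls, and every loss library was lower (exact p = 0.1). Itga11 made up 30.9%, 31.7% and 33.5% in loss libraries, against 28.2%, 24.9% and 28.8% in controls, and every loss library was higher (exact p = 0.1). In infused loss Itga11 made up 35.1% and 36.2% in loss libraries, against 37.9%, 38.3% and 37.1% in controls, and both were lower (exact p = 0.1). Itga8 made up 1.62% and 0.974% in infused loss libraries, against 4.09%, 2.62% and 1.90% in controls (exact p = 0.2). The adjusted p of all 15 shares was 0.214 or more.

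**Figure D4:**
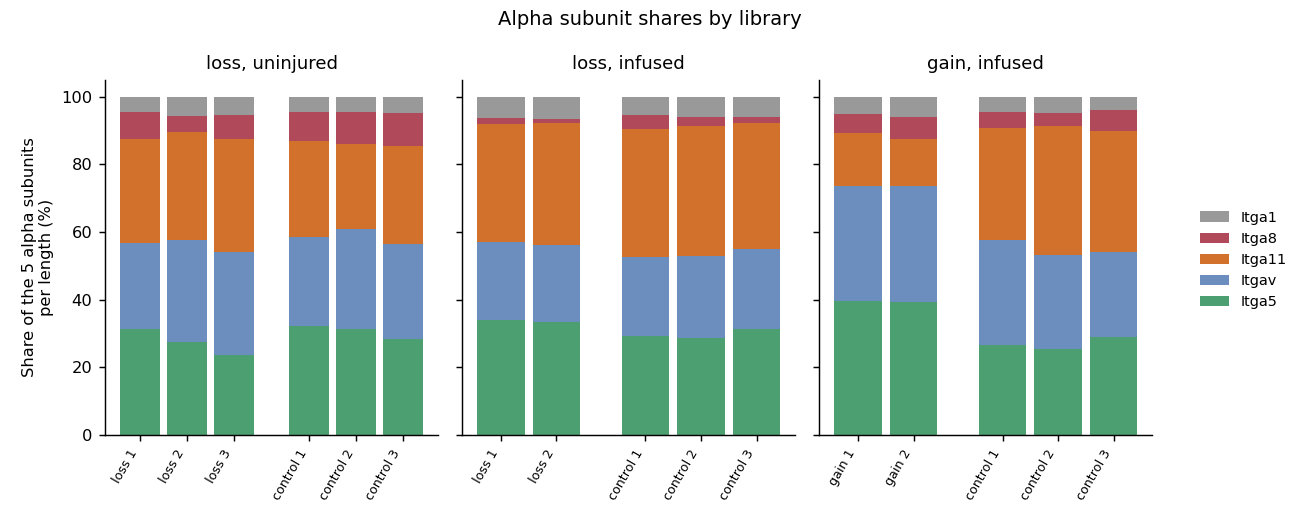
Share (%) of each of the 5 alpha chains in their per-length sum, 1 stacked bar per library, with loss or gain libraries left of their controls. The Itga11 segment takes 13.9% to 15.5% in gain libraries, against 33.0% to 37.9% in their controls.

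Beyond the 9, 17 other integrin subunits were listed in at least 1 table. Loss changed 0 of 12 tested in uninjured and 0 of 10 tested in infused hearts, with medians of -0.0087 and -0.10 on the log2 scale, where 3.58% and 0.912% of all tested genes were called. At an unadjusted p below 0.05, limma gave Itga3 in both loss comparisons, with Itga7 in uninjured and Itgb8 in infused loss. The shares of all tested genes at that cut were 21.2% and 16.1%. In gain the same cut gave Itga3, Itga7 and Itga9 as higher and Itga2b, Itga10 and Itgb8 as lower, against 20.4% of all tested genes. At the adjusted threshold gain changed 1 of 13, with a median of 0.22, where 4.14% of all tested genes were called. This was Itga3, whose chain pairs with Itgb1 as a laminin receptor: it held 1458 and 1223 normalized counts in gain libraries, against 198, 240.4 and 145 in controls. It was 6.98-fold higher (log2 fold change 2.80 ± 0.22, SE, adjusted p = 0.0035), and its call was lost without the variance trend (adjusted p = 0.0606). In loss, Itga3 was low in every library, at 36.5, 18.4 and 19.1 in uninjured loss libraries, against 40.3, 89.8 and 50.2 in controls (log2 fold change -1.24, adjusted p = 0.176). In infused loss it held 27.1 and 25.1 in loss libraries, against 47.4, 57.0 and 99.6 in controls (-1.28, adjusted p = 0.195). The difference of loss and gain effects for Itga3 was -4.08 ± 0.45 (log2, SE, adjusted p = 0.0016). The 1 mesothelial marker of 8 listed in the gain table, a gene of a cell layer rich in this chain, lay at 3.00 to 11.9 in gain libraries, against 3.27 to 14.0 in controls. That marker was under the level needed for a test, and the part of mesothelial cells in the Itga3 values was not tested.

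**Figure D5:**
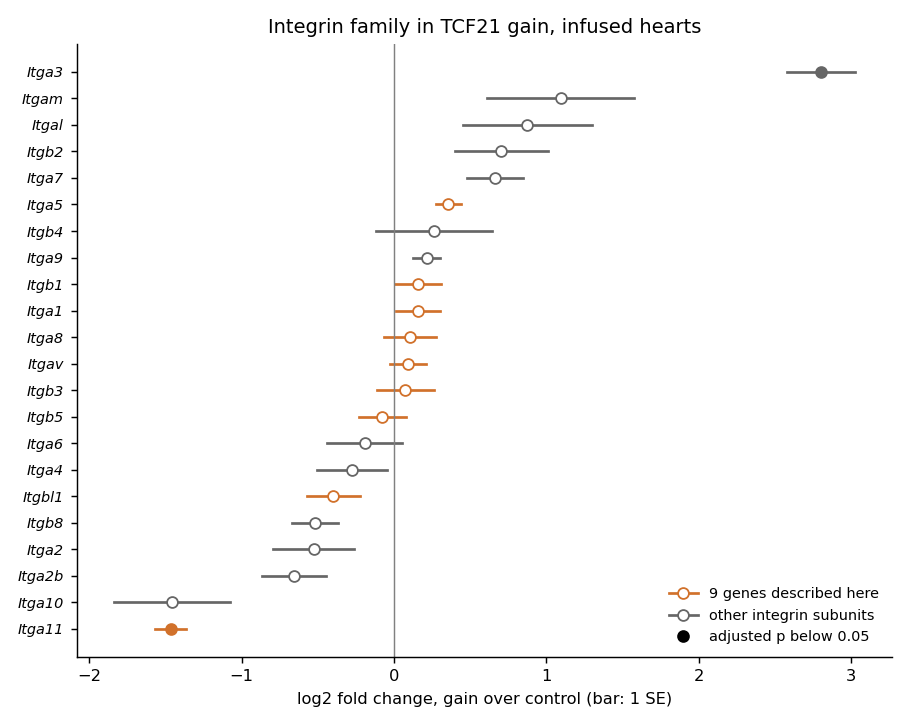
Log2 fold change, gain over control, of the 9 genes and 13 other integrin subunits tested in infused hearts, with bars of 1 SE and filled points for an adjusted p below 0.05. Itga3 at 2.80 and Itga11 at -1.47 are the filled points.

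The matrix proteins that integrins bind were counted over a list of 34 ligands. In uninjured loss 0 of 30 tested rose and 3 fell, where 3.58% of all tested genes were called, and the median log2 fold change was -0.049: Lama4 (log2 fold change -0.63, adjusted p = 0.0309) and Lama5 (-3.34, adjusted p = 0.0393), both laminin alpha chains, and Vtn, which encodes vitronectin (-0.50, adjusted p = 0.0438). Lama5 was scarce, at 2.13, 1.85 and 1.85 normalized counts in loss libraries, against 17.6, 52.6 and 25.5 in controls. The calls of Lama4 and Vtn were lost without any control library or loss library 3 (adjusted p up to 0.135 and 0.169), and that of Lama5 without control library 1 or 3 or loss library 2 or 3 (up to 0.180); without control library 2 it was under the level needed for a test. Without the variance trend Lama4 (adjusted p = 0.146) and Vtn (0.147) lost their calls, and Lama5 lost its call with quantile normalization (0.0579). With the replicate block Lama4 (0.0509), Lama5 (0.0878) and Vtn (0.0838) all lost theirs. The mural, endothelial and Schwann marker sums were lower in the same loss libraries, and the myeloid sum and the erythroid and platelet sum were higher. The part of those cells in the values of Lama4, Lama5 and Vtn was not tested. In infused loss 0 of 29 tested passed, where 0.912% of all tested genes did, and the median was -0.086.

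In gain 0 of 33 tested ligands rose and 2 fell, where 4.14% of all tested genes were called, and the median log2 fold change was -0.021. Npnt, which encodes nephronectin, the main ligand of the Itga8 receptor, held 56.5 and 45.2 normalized counts in gain libraries, against 168, 211 and 181 in controls (log2 fold change -1.86 ± 0.24, SE, adjusted p = 0.0115). Tgfbi, a TGF-beta-induced matrix protein bound by integrins, held 2961 and 3834 in gain libraries, against 6383, 5795 and 8433 in controls (-1.01 ± 0.18, adjusted p = 0.0275). The call of Npnt was lost without gain library 2 (adjusted p = 0.0662), and that of Tgfbi without control library 1 (0.0741), gain library 1 (0.140) or gain library 2 (0.0650); without the variance trend both were lost (0.0606 for Npnt and 0.140 for Tgfbi). The difference of loss and gain effects passed for 2 of 29 ligands, where 2.93% of all tested genes were called: Lama2 (-1.15, adjusted p = 0.0179) and Col6a3 (-0.93, adjusted p = 0.0383). The first was lost without loss library 2, its control library 2 or gain library 1 (up to 0.0795), and the second in 9 of 10 fits without 1 library (up to 0.154), all but that without control library 3 of the loss arm.

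Of 9 genes that make, store or release latent TGF-beta, 0 passed in either loss comparison, and in gain 1 rose and 3 fell, with a median of -0.53 on the log2 scale. Over all tested genes 4.14% were called in gain, 3.58% in uninjured loss and 0.912% in infused loss. Tgfb1 rose, at 2533 and 2516 normalized counts in gain libraries, against 1707, 1569 and 1887 in controls (log2 fold change 0.56, adjusted p = 0.0311). Tgfb3 fell, at 22869.8 and 23728 in gain libraries, against 37948, 44584 and 35323 in controls (-0.75, adjusted p = 0.0242). Tgfb2 fell, at 1156 and 1131 in gain libraries, against 1828, 1656 and 1497 in controls (-0.53, adjusted p = 0.0443), and so did Ltbp1, a latent TGF-beta binding protein named here after its values were seen. The calls of Tgfb1 and Tgfb2 stood only without control library 3 (adjusted p up to 0.170 and 0.223 without another), and that of Tgfb3 only without control library 2 or 3 (up to 0.146). Without the variance trend all 3 lost their calls (0.133 for Tgfb1, 0.152 for Tgfb2 and 0.103 for Tgfb3). The difference of loss and gain effects passed for Tgfb3 alone of the 9 (0.85, adjusted p = 0.0273) and was lost in 5 of 10 fits without 1 library, those without control library 2 or loss library 2 of the loss arm, or control library 1, gain library 1 or gain library 2 of the gain arm (up to 0.117), and without the variance trend (0.0511).

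Inside the cell, talins, kindlins and other adaptors link integrin tails to actin. Of 46 such genes listed for this purpose, 0 of 45 tested passed in uninjured loss, 0 of 42 in infused loss, and 1 rose and 1 fell of 44 in gain, against the same 3.58%, 0.912% and 4.14% of all tested genes; the medians were -0.043, -0.042 and 0.029 on the log2 scale. Fblim1, which encodes the adhesion adaptor migfilin, held 7638 and 7326 normalized counts in gain libraries, against 2527, 2659 and 2192 in controls. It was 3.05-fold higher (log2 fold change 1.61 ± 0.10, SE, adjusted p = 0.0016), kept its call in all fits run, and had a difference of loss and gain effects of -1.44 (adjusted p = 0.0071).

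The genes whose pattern was most like that of Itga11 over all 16 libraries were named by the root mean square distance of log2 values after subtraction of each table's control mean, among 13939 genes. They were Timp3, a matrix-bound metalloproteinase inhibitor, at 0.169, Gadd45b, a stress-response gene, at 0.187, and Adamtsl3, a secreted ADAMTS-like matrix protein, at 0.193. As chosen for likeness, they too were low in gain. Timp3 held 25631 and 18607 normalized counts in gain libraries, against 57566, 61153 and 47809 in controls. Gadd45b held 2134 and 2030.3 in gain libraries, against 4418, 4560.9 and 5026 in controls. Adamtsl3 held 2536 and 2660.2 in gain libraries, against 7880.2, 7889 and 5180.4 in controls. Their loss effects were 0.18, 0.018 and 0.11 on the log2 scale in uninjured hearts and 0.051, -0.27 and -0.39 in infused hearts.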

How the data were processed

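Flow-sorted cardiac fibroblasts gave total RNA through a micro-scale column kit, and cDNA was amplified by SMART-seq from low input, as the labels' protocols state. Per the submitters' processing notes, kallisto and DESeq2 were used with GRCm38, while no version or gene annotation is given in the sources used here. What the authors deposited is a normalized signal: estimated counts scaled by normalization factors, separately in each of 3 tables. Low values (0.5 to 6) lay within 0.03 of a whole step in only 35.6% to 67.5% of cases, so the values were not turned back into reads.

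Groups came from the labels. Genes with a table mean of at least 10 were tested by limma (version 3.58.1, R 4.3.3) on log2(value + 1), with a variance trend, two-sided, adjusted by Benjamini-Hochberg over all tested genes at 0.05, and with only the groups compared in each fit. Fold changes are on that scale, which understates changes of low genes. A fit that leaves out 1 of 2 libraries assumes that the lone library varies like its controls. Levels per kilobase used the longest GENCODE transcript on GRCm38; promoters are those of RefSeq on GRCm38.p6. Of listed genes, only an antisense gene at Itga8, at no more than 15.3 normalized counts, shares exon sequence with a member, and the strand setting is not known here. The tests were tried on simulated data with 200 changed genes before use. The members and lists were chosen with earlier results of these data known. Named were all 9 members, up to 3 genes of each list with the smallest p among those past the threshold, and the 3 genes nearest to each called member. 1 gene that this rule took is not reported here. Alternatives varied the pseudocount, filter, scaling, variance model, library weights, replicate block and transcript length, and left out each library; shares over all alpha subunits were added after seeing the data.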

Additional observations from a re-analysis of the deposited data

Results flagged for a closer look

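The effects of loss and gain on Itga11 in infused hearts differed by 1.37 on the log2 scale (loss minus gain, limma adjusted p = 0.0014). The result is listed because a test of the difference itself passed. Itga11 was lower in 2 of 2 gain libraries than in all 3 of their controls, while the 2 loss libraries overlapped theirs.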

How the results depend on the processing

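Over 9 other settings and the fits without 1 library, members past the threshold numbered 0 to 3 in uninjured loss (2 with library weights, 3 without loss library 1), 0 or 1 in infused loss (1 with the replicate block), 0 to 2 in gain (0 without the variance trend, 2 with library weights, 2 with the block, 1 to 2 without 1 library), 0 in the difference of loss effects, and 1 or 2 in loss minus gain (2 with library weights, 2 with the block). Over the same fits all called genes numbered 88 to 949, 32 to 1462, 25 to 1842, 12 to 79 and 155 to 901. The cause of these changes was not tested. Correlations of deviations between same-numbered libraries ran from -0.0538 to 0.176. The best match had the same number for library 1 of loss or gain in each comparison and for gain library 2, and another number for the rest. In a group of 2 libraries the deviations mirror each other, so these values cannot tell whether the numbers pair the samples. With the block Itga8 passed in infused loss (adjusted p = 0.00054) and in loss minus gain (adjusted p = 0.0040), and Itga5 in gain (adjusted p = 0.0128). In the infused comparisons control library 3 has no same-numbered partner, so the block took it out of the effect. The Itga5 effect in gain was 0.38 with the block and also without that library. In uninjured loss the block lost the calls of Lama4, Lama5, Vtn and Kcnj8. With the median transcript length 4, 4 and 2 of 9 members kept their place in the order of levels. The Itga11 share difference in gain lay between -22.1 and -19.7 percentage points without 1 library, and between -18.5 and -8.38 with the median length or with all alpha subunits as the denominator, the last chosen after seeing the data; the Itgav share difference in uninjured loss lay between -0.28 and 2.25 points without 1 library.

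Signs turned only for effects that did not pass. In gain these were Itgb5 with quantile normalization (0.13) and Itgav with the block (-0.011). In the difference of loss effects they were Itgbl1 with quantile normalization (0.014) and Itga1 (-0.010) and Itgav (-0.0059) with library weights, and in loss minus gain Itga1 with median-centred libraries (-0.0036) and Itgb1 (0.14) and Itgb5 (0.047) with the block. Without 1 library, log2 effects spanned 0 in uninjured loss for Itga1 (-0.032 to 0.17) and Gadd45b (-0.17 to 0.19). In infused loss they did so for Itga11 (-0.22 to 0.027), Itgav (-0.16 to 0.029), Itgb1 (-0.065 to 0.25), Itgb5 (-0.29 to 0.065) and Timp3 (-0.0030 to 0.13). In gain they did so for Itga8 (-0.038 to 0.26), Itgav (-0.011 to 0.16), Itgb3 (-0.17 to 0.32) and Itgb5 (-0.16 to 0.033). In the difference of loss effects they did so for Itga1 (-0.033 to 0.25), Itgav (-0.047 to 0.15) and Itgb3 (-0.017 to 0.24), and in loss minus gain for Itga1 (-0.14 to 0.15), Itgb1 (-0.22 to 0.086), Itgb3 (-0.44 to 0.052) and Itgb5 (-0.22 to 0.14). The depth behind the values in reads is not known, and groups of 2 libraries limit the precision.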

Other observations

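Among integrin subunits outside the 9, a few with no overlap between groups did not pass the threshold; they were picked after their values were seen. Of all tested genes, 27.7% had no overlap in uninjured loss, 35% in infused loss and 39.3% in gain. Itga7, the laminin receptor chain of muscle, held 650.3, 345 and 707 normalized counts in uninjured loss libraries, against 923, 1194 and 1085 in controls (log2 fold change -0.97, limma adjusted p = 0.0704). In gain it held 1185 and 1198 in gain libraries, against 750, 948 and 598 in controls (0.66, adjusted p = 0.103). The summed cardiomyocyte markers were higher in the same gain libraries, but their list median was -0.12 on the log2 scale. Of 8 tested 1 passed, Actc1, at 336 and 286 in gain libraries, against 134, 154 and 102 in controls. In uninjured hearts the mural sum, among other marker sums that differed, was lower in the same loss libraries. The part of these cells in the Itga7 values was not tested. In infused loss the Itga7 groups overlapped, at 498 and 709 in loss libraries against 628, 492 and 599 in controls. Itgb8, a beta chain that pairs with Itgav and binds latent TGF-beta, held 667 and 691 in infused loss libraries, against 886, 1069.6 and 982 in controls (-0.52, adjusted p = 0.117). In gain it held 1262 and 917 in gain libraries, against 1685, 1549 and 1402 in controls (-0.52, adjusted p = 0.119). Both the loss and the gain libraries were thus under their own controls for Itgb8 in infused hearts, and in uninjured hearts the groups overlapped. The leukocyte chains Itgam, Itgal and Itgb2 were higher in both gain libraries than in every control, at 46.0 and 110 for Itgam against 22.2 to 43.9 in controls, and none passed. The 12 myeloid markers summed to 2530 to 4996 in gain libraries, against 1920 to 2845 in controls, so the sums overlapped. Of the 12 tested 0 passed, with a list median of 0.58 on the log2 scale. The part of myeloid cells in these chains was not tested.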
